A study of Rattus norvegicus with 3 samples.

Results

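The small heat shock proteins described here were the 7 genes Hspb1, Hspb2, Hspb3, Hspb6, Hspb7, Hspb8 and Cryab, out of 15301 genes that could be named on the arrays. They were taken as every gene probe whose RefSeq accession belongs to one of these genes, which gave 9 probes, 6 of them on both array designs used in the study. RNA came from whole common carotid arteries of male Wistar rats, with 1 artery left uninjured, 1 taken 7 days and 1 taken 21 days after balloon injury. In this injury an inflated balloon is drawn through the vessel, which strips the endothelium and stretches the muscle wall. No age, genotype or drug is given in the labels, and injury and time are the only named differences between the groups. The design text speaks of independent experiments with different rats, but only 1 array per group was analysed here. There is therefore no spread between animals, no test and no p-value, and each difference is one between 2 arrays.

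Small heat shock proteins share the alpha-crystallin domain, form oligomers and hold unfolding proteins in a soluble state without using ATP. In muscle they bind desmin, filamin and actin filaments, and several of them are among the abundant proteins of contractile smooth muscle. Hspb1 (Hsp27) is a phosphorylation target of the p38 and MK2 kinases and acts on actin dynamics, Hspb6 (Hsp20) is a target of cyclic nucleotide-dependent kinases in vascular relaxation, and Hspb8 works with the co-chaperone Bag3 in the disposal of damaged filament proteins. Their genes can be induced by heat shock factors, which bind repeats of the letters GAA and their reverse complement.

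The sequence before the start of transcription is shown for Hspb1, Hspb6 and Hspb7, which were lower in the injured arteries, and for Hspb8, which was not. RefSeq promoters of the GRCr8 build were matched by symbol for 5 of the 7 members. Cryab, also lower in the injured arteries, and Hspb2 had no match and were not searched. Each window is the 250 bases before the start, 5′ to 3′ on the gene's strand: chr12:26432302-26432551, minus strand, for Hspb1; chr1:94934122-94934371, plus strand, for Hspb6; chr5:159010509-159010758, plus strand, for Hspb7; and chr12:45837058-45837307, plus strand, for Hspb8. Capitals mark the motif matches named below.
Hspb1: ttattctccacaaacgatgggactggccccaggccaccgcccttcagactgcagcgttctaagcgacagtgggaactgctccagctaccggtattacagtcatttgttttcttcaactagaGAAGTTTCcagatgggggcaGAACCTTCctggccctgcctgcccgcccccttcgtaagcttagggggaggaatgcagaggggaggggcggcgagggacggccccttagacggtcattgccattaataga
Hspb6: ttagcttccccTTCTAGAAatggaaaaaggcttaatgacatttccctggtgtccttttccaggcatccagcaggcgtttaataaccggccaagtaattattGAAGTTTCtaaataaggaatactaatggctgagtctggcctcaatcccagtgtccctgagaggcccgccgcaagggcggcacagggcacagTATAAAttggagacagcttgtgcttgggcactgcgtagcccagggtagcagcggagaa
Hspb7: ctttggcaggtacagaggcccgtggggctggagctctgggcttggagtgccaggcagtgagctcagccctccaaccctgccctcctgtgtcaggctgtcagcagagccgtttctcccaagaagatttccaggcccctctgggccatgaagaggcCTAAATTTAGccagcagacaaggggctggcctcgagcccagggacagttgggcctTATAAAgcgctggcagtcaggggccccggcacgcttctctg
Hspb8: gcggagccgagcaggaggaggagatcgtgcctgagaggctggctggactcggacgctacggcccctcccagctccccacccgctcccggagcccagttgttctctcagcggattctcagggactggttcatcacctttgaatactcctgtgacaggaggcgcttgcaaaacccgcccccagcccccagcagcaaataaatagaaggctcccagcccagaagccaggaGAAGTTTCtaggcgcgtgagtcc

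Both strands were searched for GAANNTTC and TTCNNGAA, the paired heat shock units, each of which is its own reverse complement. Hspb1 held GAANNTTC 129 to 122 and 109 to 102 bases before the start. Hspb6 held it at 149 to 142 bases and TTCNNGAA at 239 to 232 bases, and Hspb8 held GAANNTTC at 23 to 16 bases, while the window of Hspb7 had neither. Among 33469 windows of the same length, 7.23% held GAANNTTC and 7.48% held TTCNNGAA. The longer form that joins both motifs, with GAA and TTC alternating over 3 units, occurred in 0.663% of windows and in none of the 5 members searched. No member's window held a CArG box, the site of serum response factor, against 501 of all 33469. A MEF2 box was found in Hspb7 (96 to 87 bases, 2.96% of all windows), and also in Hspb3, whose window is not printed. TATAAA stood in Hspb6 (58 to 53 bases) and in Hspb7 (41 to 36 bases), against 12.9% of all windows searched on both strands. In Hspb3 it overlapped the MEF2 box. These matches describe the letters only. Heat shock letters were present in members that were lower after injury and in the one that was not.

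Of the 3 arrays, the uninjured and day 21 arrays shared a design and a scan, whereas the day 7 array had another design, scan and software release, so day 7 and batch cannot be told apart. Between 59.8% and 76.6% of probes were well above background and no spot was saturated. Values are log2 signals after subtracting each array's 75th percentile. The reference for that percentile was the set of all probes for day 21 against uninjured, and the probes on both designs for comparisons with day 7. Each ± is a technical SD of a ratio between probe means, computed from spots printed more than once on an array. It is smaller for a probe with more spots, such as that of Hspb1, and is not the spread of single spots. Probes for the same gene spread more widely, with an SD of 0.58 at day 21 and 0.98 at day 7 for ratios to the uninjured array.

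Hspb1 was much lower in both injured arteries. Its probe was spotted 10 times on the uninjured array, at 23662 to 28252 intensity units, and 10 times on the day 21 array, at 10310 to 11922 units. The single day 7 spot read 4929 units. The spots of the uninjured and day 21 arrays did not overlap, although the day 21 array was brighter as a whole, with a 75th percentile of 135 against 49.6 units. After scaling, the log2 ratio to the uninjured artery was -3.22 ± 0.11 at day 7 (9.30-fold lower) and -2.62 ± 0.03 at day 21 (6.15-fold lower). Of all genes measured, 0.551% had a lower ratio at day 7 and 0.647% at day 21.

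Hspb6 was lower by a like amount. Its processed signal was 1847 units in the uninjured artery, 558 units at day 7 and 761 units at day 21. The uninjured array stood highest even before scaling. The log2 ratio was -2.59 ± 0.12 at day 7 (6.01-fold lower) and -2.73 ± 0.13 at day 21 (6.63-fold lower). Ratios lower than these were found for 1.44% of genes at day 7 and 0.531% at day 21.

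Cryab (alpha-B crystallin), a holdase of desmin filaments, read 10462 units in the uninjured artery, 7064 at day 7 and 5039 at day 21. It was lowest at day 21, and its difference from the uninjured artery at day 7 was much smaller than those of Hspb1 and Hspb6. The log2 ratio was -1.43 ± 0.14 at day 7 (2.69-fold lower) and -2.503 ± 0.12 at day 21 (5.67-fold lower). Ratios lower than these were found for 9.06% of genes at day 7 and 0.838% at day 21. With cyclic loess normalization the day 7 ratio was -0.99, just short of 2-fold.

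Hspb7, a member enriched in muscle that acts on actin filaments, was measured by a pair of probes on the older design. The probe on both designs read 91.5 units in the uninjured artery, 63.6 at day 7 and 70.0 at day 21. The other probe, brighter and therefore the one reported for day 21, read 105 units in the uninjured and 116 units in the day 21 artery. Its log2 ratio at day 21 was -1.30 ± 0.20 (2.47-fold lower), and the shared probe gave -1.83 ± 0.18. At day 7 the shared probe gave -1.38 ± 0.28 (2.61-fold lower). Lower ratios were found for 9.80% of genes at day 7 and, for the probe reported at day 21, 7.50% there. Both probes were lower at day 21 after scaling, but the raw signal of the brighter one was not, so its ratio rests on the scaling. It came within 2-fold with median scaling (-0.82) and with normexp background correction (-0.72).

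Hspb2 and Hspb3 form a complex with each other in muscle. Hspb2 lies next to Cryab, and their gene models overlap in the RefSeq annotation. On the older design the Hspb2 probe read 78.3 units in the uninjured and 76.2 units in the day 21 artery. The raw signals were nearly equal, and after scaling the log2 ratio was -1.49 ± 0.19 (2.81-fold lower), with 5.05% of genes lower still. It was -0.86 with normexp. No day 7 ratio is available for Hspb2, whose day 7 probe was a different one. Hspb3 was not well above background on any of the 3 arrays, at 1.92, 2.78 and 2.42 units in the uninjured, day 7 and day 21 arteries. Its ratios are therefore not reported, and it is counted only where the filter on dim probes is dropped.

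Hspb8 stood apart from the other members measured by its sign. Its signal was 28.6 units in the uninjured artery, 78.3 at day 7 and 108 at day 21, lowest in the uninjured artery. The log2 ratio was 0.59 ± 0.22 at day 7 (1.51-fold higher) and 0.47 ± 0.19 at day 21 (1.39-fold higher), within 2-fold both times. Lower ratios were found for 72.3% of genes at day 7 and 81.0% at day 21. At day 21 it was above 0 under the 6 other scalings run, from 0.13 to 0.95. At day 7 it was below 0 under 2 of 6, at -0.29 in the authors' deposited table and -0.63 with own-design scaling, in which each array is scaled on every probe of its own design.

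**Figure D1:**
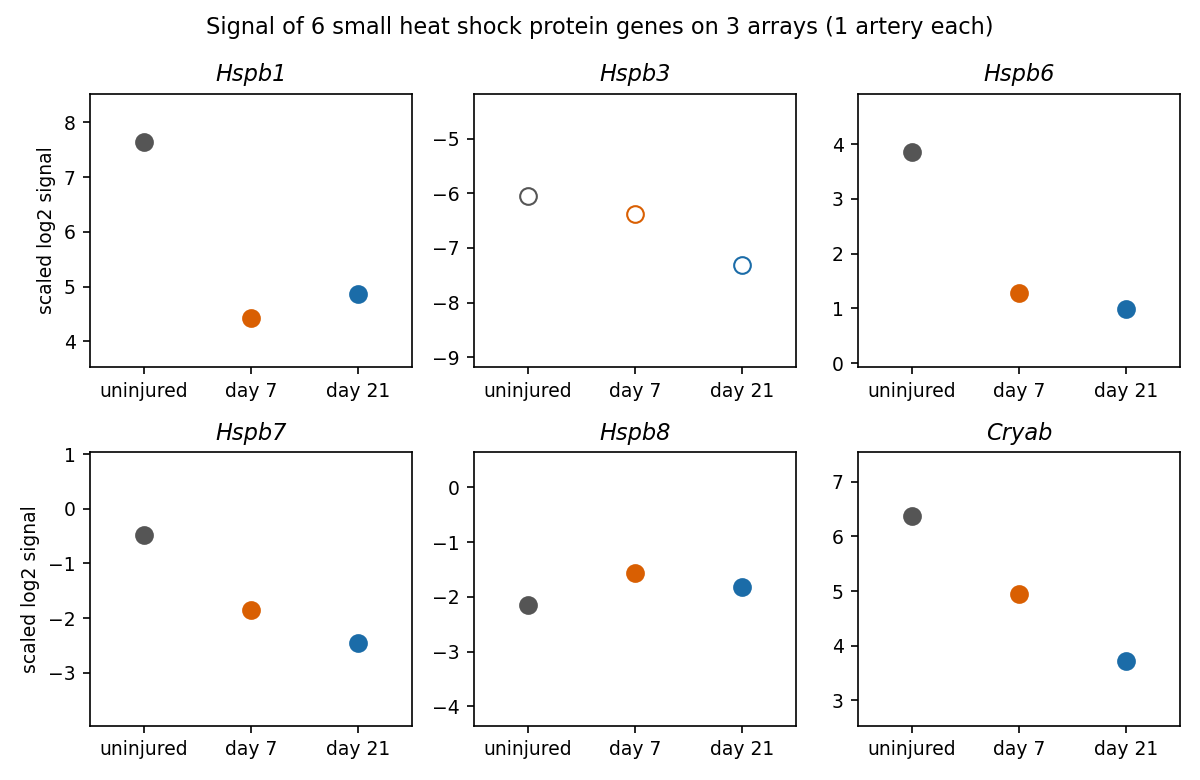
Scaled log2 signal (vertical axes, each spanning 5 log2 units at its own level) of the 6 members with a probe on both designs, on the uninjured, day 7 and day 21 arrays, with 1 array per group. Filled points are well above background and open points are not; Hspb1, Hspb6, Hspb7 and Cryab were highest in the uninjured artery, Hspb8 lowest there, and Hspb3 was not well above background.

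Counted together, 4 of 5 measured members were at least 2-fold lower at day 7, against 16.3% of 5263 genes, and none was at least 2-fold higher, against 16.1%. Their median log2 ratio was -1.43, where the median of all genes was -0.01. At day 21, 5 of 6 measured members were at least 2-fold lower, against 13.7% of 9422 genes, with a median of -1.996 against -0.20 for all genes. None was at least 2-fold higher, against 9.12% of genes. In whole-artery RNA, fewer cells of a type and less RNA per cell cannot be told apart. The comparisons with the uninjured artery share that array, so the day 7 and day 21 values are given side by side and are not independent of each other.

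**Figure D2:**
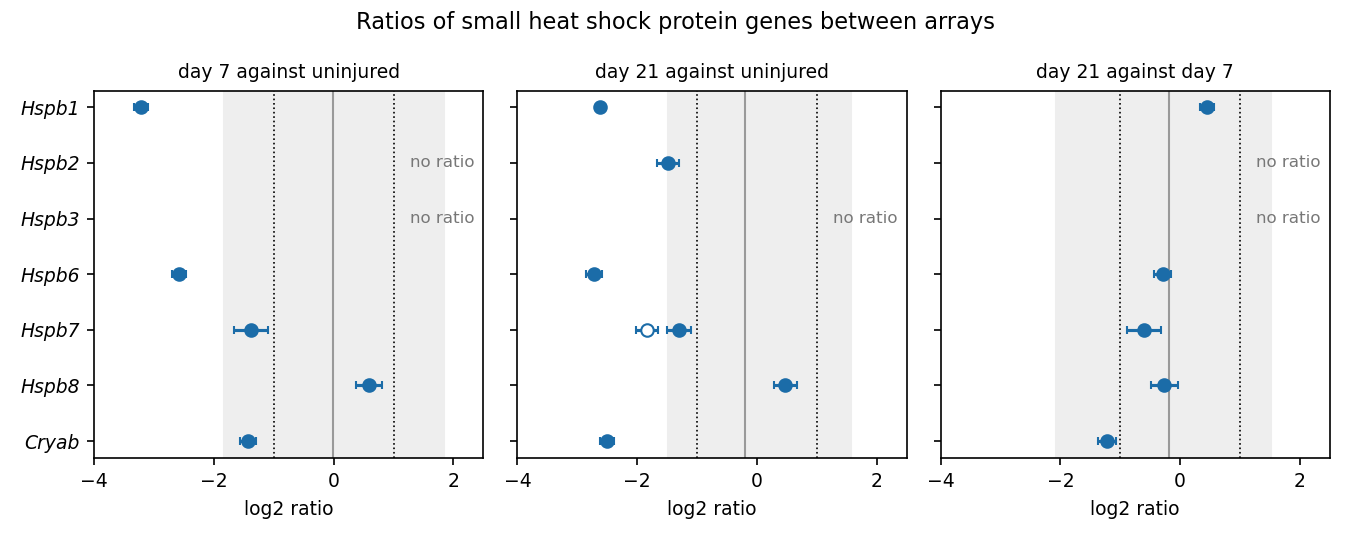
Log2 ratios (horizontal axes) of the members in the 3 comparisons, with bars for the technical SD of each ratio. The open point is the second Hspb7 probe. Grey bands span the 5th to 95th percentile of all genes, the grey line is their median, and dotted lines mark 2-fold; Hspb1 and Hspb6 lie to the left of the band at both times, and Hspb8 lies to the right of the median in both comparisons with the uninjured artery.

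Between the injured arteries the members' differences depended on the scaling. Of 5 measured, 1 was at least 2-fold lower at day 21 than at day 7, against 20.0% of 5657 genes, and none was at least 2-fold higher, against 10.8%. With own-design scaling none was lower and 3 were at least 2-fold higher: Hspb1 (1.82), Hspb6 (1.08) and Hspb8 (1.104). On that scale 57.6% of all genes were at least 2-fold higher. The member lower on the reported scale was Cryab, with a log2 ratio of -1.22 ± 0.15 (2.33-fold lower). It was at least 2-fold lower under 2 of the 6 other scalings, quantile and loess, and was 0.15 with own-design scaling. Hspb1 was at 0.45 ± 0.11, Hspb6 at -0.29 ± 0.14, Hspb7 at -0.60 ± 0.29 and Hspb8 at -0.27 ± 0.23, and all 4 were within 2-fold. Hspb1 was the one member higher at day 21 than at day 7 on the reported scale, and it was higher under the 6 other scalings, from 0.56 to 1.82. In the authors' deposited table Hspb6 (0.52), Hspb7 (0.93) and Hspb8 (0.76) were higher too, and with median scaling Hspb6 and Hspb8 were. On the same shared probes, the ratio of day 21 to uninjured was -2.77 for Hspb1, -2.87 for Hspb6, -1.98 for Hspb7, -2.65 for Cryab and 0.33 for Hspb8. On the reported scale Hspb1 thus had its lowest level at day 7 and Cryab at day 21, an order that for Cryab did not hold with own-design scaling.

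The balance of all genes depends on the scaling. At day 7, 49.6% of genes called in either direction were higher, against 26.2% with median scaling, 20.1% in the authors' deposited table and 5.46% with own-design scaling. At day 21 that share was 39.9%, against 77.1% with median scaling, 55.6% with quantile normalization, 64.9% with cyclic loess, 74.9% with normexp and 57.5% in the authors' deposited table. Between day 7 and day 21 it was 35.04%, against 66.0%, 59.5% and 57.5% with median, quantile and loess scaling, 86.4% in the authors' deposited table and 95.3% with own-design scaling. The median of all genes moved with it, to -0.39 at day 7 and 0.28 at day 21 with median scaling. Taken relative to the median of all genes, the members' median was -1.41 at day 7 (-1.37 to -1.99 over the other scalings) and -1.80 at day 21 (-1.26 with normexp to -2.38 on shared probes, over the other scalings). Hspb1, Hspb6, Hspb7 and Cryab kept a negative ratio to the uninjured artery under the 6 other scalings run at each time, and Hspb2 under the 4 that could be run for its probe at day 21. The remaining alternatives left these ratios unchanged or nearly so and do not bear on their sign. The exception in size was Hspb7 at day 21, which went from -1.30 to -1.57 with the median over probes.

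**Figure D3:**
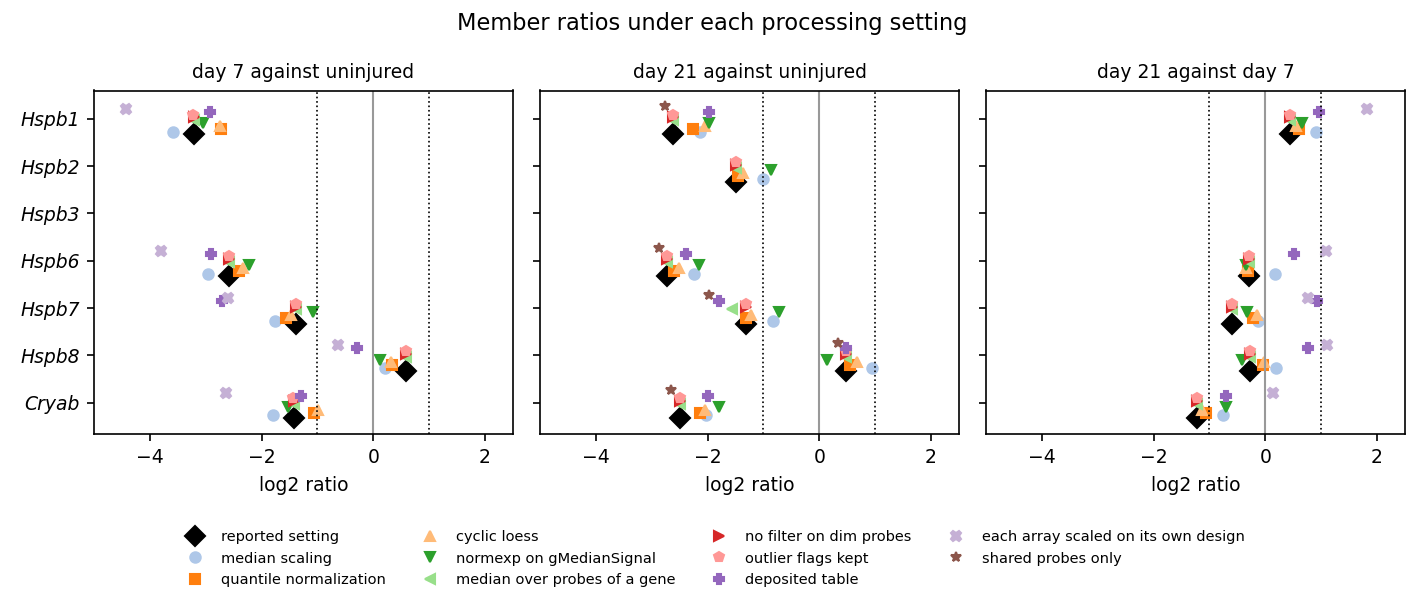
Log2 ratio of each member (horizontal axes) under the reported setting (black diamonds) and the alternatives that change values; the solid line is 0 and dotted lines mark 2-fold. Hspb1 and Hspb6 stay left of -1 in both comparisons with the uninjured artery, Hspb8 crosses 0 at day 7 under 2 alternatives, and in day 21 against day 7 only Hspb1 keeps its sign throughout.

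The wider family was less fully measured. Of 5 other genes listed, comprising the lens crystallin Cryaa, the testis genes Hspb9 and Odf1, Hspb11 and the Hspb1-associated Hspbap1, 2 were measured at day 7 and 4 at day 21. None was at least 2-fold apart at day 7 and 2 were at least 2-fold lower at day 21: Odf1 (-1.59 ± 0.50) and Hspb9 (-1.58 ± 0.38). Neither passed with loess or normexp, and 1 did with quantile normalization. Cryaa was at -0.22 ± 0.22 and Hspbap1 at 0.14 ± 0.22.

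The other chaperone lists differed from one another. Their day 7 figures use shared probes and their day 21 figures all probes of the older design, so the genes and the scale differ between times. On shared probes the day 21 medians were -0.70 for Hsp70 and Hsp110, -0.94 for Hsp90, -1.90 for Hsp40 and -0.26 for chaperonins. Of the Hsp70 and Hsp110 list, 3 of 7 measured genes were at least 2-fold lower at day 7 (median -0.82) and 5 of 13 at day 21 (median -0.71), with none of those measured higher at either time. The day 21 count was 2 with median scaling and 1 with normexp. Hspa12a, a distant Hsp70 relative, was well above background at day 7 and not in the uninjured artery on its shared probe, and so is outside the day 7 count. Hspa1a, the stress-inducible Hsp70, was the lowest at day 21, at -3.65 ± 0.18 (12.6-fold lower), and had no probe on both designs. Hsph1, the Hsp110 that exchanges nucleotide on Hsp70, was at -1.81 ± 0.38 at day 7 and -1.75 ± 0.18 at day 21. Hyou1, the Hsp110 of the endoplasmic reticulum, was at -1.98 ± 0.11 at day 7 and 0.34 ± 0.13 at day 21. Between the injured arteries 2 of 8 of this list were at least 2-fold lower and 1 higher (median 0.10, but -0.14 with normexp), Hspa12a among the lower at -3.00 ± 0.24. None was lower and 5 of 7 were higher in the authors' deposited table (median 1.24), and 6 of 8 were higher with own-design scaling (median 1.47). Of all genes, 39.6% and 57.6% were at least 2-fold higher in those settings.

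The Hsp40 list, whose products deliver clients to Hsp70, had 3 of 6 genes at least 2-fold lower at day 7 (median -1.46). At day 21, 4 of 11 were lower and 3 higher. The median of -0.02 there turned positive with median, quantile and loess scaling, and was 0.46 with the first, but -1.90 over the 7 genes on shared probes. Dnajb5 was at -2.83 ± 0.46 and -2.98 ± 0.20 at day 7 and day 21, and Dnaja1 at -2.37 ± 0.11 and -1.75 ± 0.13, all at least 2-fold lower under every scaling tried. Those higher at day 21 were Dnajb9 (1.18 ± 0.21), Dnajb11 (1.08 ± 0.26) and Dnajc3 (1.07 ± 0.19), which serve the endoplasmic reticulum, and with normexp none of them passed 2-fold. Between the injured arteries none of 6 was at least 2-fold lower and 1 was higher (median 0.21, but -0.03 with normexp). With own-design scaling 6 of 6 were higher (median 1.58), and 3 of 5 were in the authors' deposited table (median 1.23). Of all genes, 57.6% and 39.6% were at least 2-fold higher in those settings.

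Hsp90 genes and co-chaperones had 4 of 7 at least 2-fold lower at day 7 (median -1.03). At day 21, 2 of 10 were lower and 1 higher (median -0.43, but 0.05 with median scaling and 0.10 with normexp), and none was lower with median, quantile, loess or normexp scaling. Hsp90aa1, the inducible cytosolic Hsp90, was at -1.41 ± 0.11 and -1.05 ± 0.13, the latter at least 2-fold lower under 1 of 5 scalings. Its day 7 and day 21 values come from different probes. Fkbp5, a co-chaperone of steroid receptors, was at 0.18 ± 0.13 at day 7, with a range of -1.04 to 2.82 over the scalings, and at 2.08 ± 0.15 at day 21, the latter at least 2-fold higher under all 6 scalings. Chaperonins had 3 of 5 at least 2-fold lower at day 7 (median -1.40) and 0 of 10 beyond 2-fold in either direction at day 21 (median -0.31, but 0.17 with median scaling and positive with normexp). Day 21 was higher than day 7 by a median of 0.39 for 7 Hsp90 genes and 0.69 for 5 chaperonins.

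On the reported scale, Hsf2 at day 7 was the one heat shock transcription factor at least 2-fold apart from the uninjured artery. Hsf1, the main activator, was at -0.59 ± 0.12 at day 7 and -0.96 ± 0.14 at day 21. Hsf2 was at -1.56 ± 0.13 at day 7 and -0.29 ± 0.16 at day 21, and the latter turned positive with median scaling and normexp. Of the list, 1 of 3 genes was at least 2-fold lower at day 7 and 0 of 4 at day 21, and the median between day 7 and day 21 was 0.58.

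**Figure D4:**
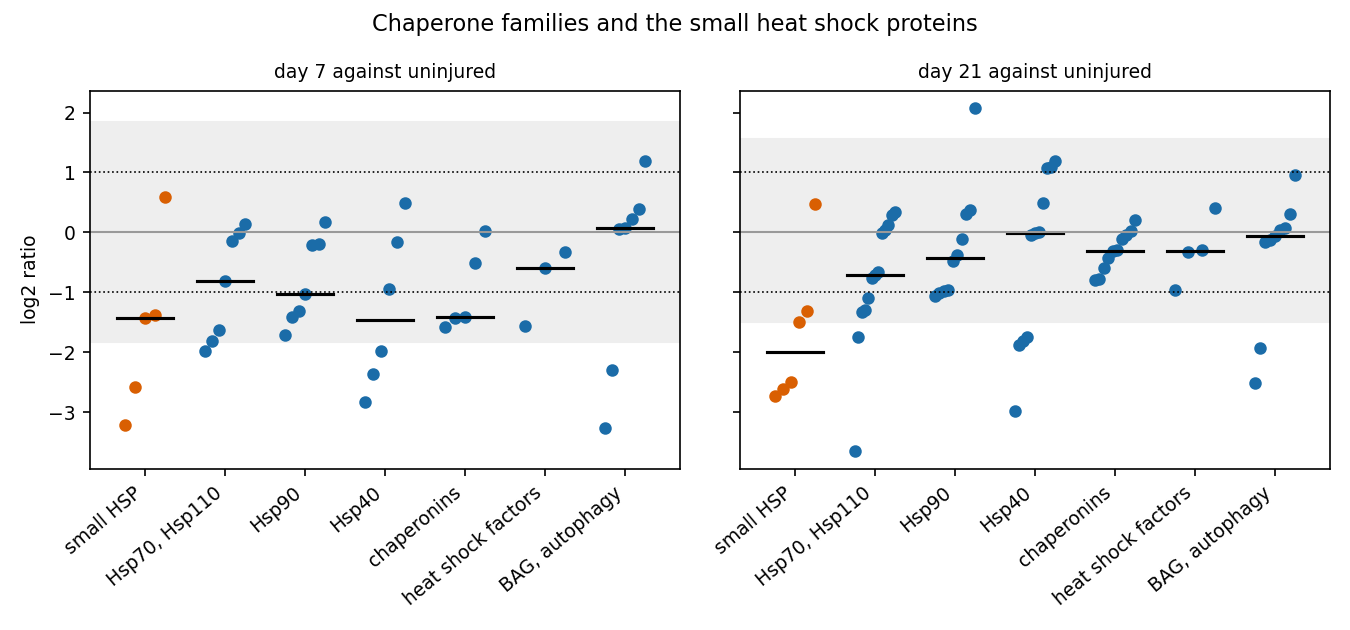
Log2 ratios (vertical axis) of the measured genes of each chaperone list at day 7 and day 21 against the uninjured artery; each point is a gene, black bars are list medians, the grey band spans the 5th to 95th percentile of all genes and dotted lines mark 2-fold. Small heat shock proteins (orange) have a median of -1.43 at day 7, near those of Hsp40 (-1.46) and chaperonins (-1.40). At day 21 their median is -1.996, while those of the other 6 lists lie between -0.71 and -0.02. Some of these turn positive under other scalings, and on shared probes the Hsp40 median is -1.90, against -2.65 for the members.

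On the reported scale Bag3, the partner of Hspb8, differed in the direction opposite to it. Hspb8 itself was within 2-fold at both times, and at day 7 was below 0 in the authors' deposited table and with own-design scaling. Bag3 was at -3.27 ± 0.08 at day 7 and -2.51 ± 0.13 at day 21, and Bag2, a co-chaperone of Hsp70, at -2.30 ± 0.13 and -1.93 ± 0.13. Both were at least 2-fold lower under all 6 scalings at each time. They were the 2 of 7 genes at least 2-fold lower at day 7, and the 2 of 9 at day 21, in the list of BAG co-chaperones and autophagy genes, in which 1 was higher at day 7 and none at day 21. The list's medians of 0.07, -0.05 and -0.33 (day 21 against day 7) all changed sign under some scalings. The one higher was Map1lc3b, an autophagosome protein, at 1.19 ± 0.14 at day 7, except with own-design scaling, where it was -0.03. The autophagy receptor Sqstm1 was at 0.95 ± 0.13 at day 21.

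Desmin and filamin A, filament proteins that small heat shock proteins hold, were lower, and vimentin was not. In the list of clients and partners, 3 of 6 genes were at least 2-fold lower at day 7 (median -1.16), the 14-3-3 gene Ywhag among them, and 4 of 7 at day 21 (median -1.38). Des (desmin) was at -1.99 ± 0.11 and -3.23 ± 0.15, and Flna (filamin A) at -1.42 ± 0.14 and -1.98 ± 0.13. Desmin was at -1.39 ± 0.15 in day 21 against day 7, at least 2-fold lower under 3 of 6 scalings and at -0.02 with own-design scaling. Vim (vimentin) was at 0.41 ± 0.08 at day 7, or -0.81 with own-design scaling, and at 0.73 ± 0.12 at day 21. The median between the injured arteries was -0.27 and changed sign under 3 scalings. The list of kinases of small heat shock proteins and their regulators had 2 of 4 genes at least 2-fold lower at day 7 (median -0.68). At day 21 it had 2 of 9 (median -0.48), but none with normexp at either time and none with loess at day 21. Those lower at day 7 were Map2k3 and Prkacb, the latter at -1.02 ± 1.42. Map2k3, which activates p38, was at -1.10 ± 0.13 and -1.25 ± 0.12, at least 2-fold lower under 3 and 1 of 6 scalings, and Prkg1, the cyclic GMP-dependent kinase, was at -1.48 ± 0.37 at day 21. Between the injured arteries 0 of 4 kinases were beyond 2-fold.

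Cell type markers moved at the same time. Contractile smooth muscle markers were well above background on all arrays, and 8 of 9 were at least 2-fold lower at day 7 (median -2.54) and 14 of 14 at day 21 (median -2.15; 11 with median scaling and 9 with normexp), as were Cnn1 (-3.08 and -3.13) and Tagln (-2.20 and -2.39). Their summed scaled signal, in log2, went from 9.25 to 6.48 at day 7 and from 11.8 to 9.30 at day 21. The day 7 sums cover 9 genes on shared probes and the day 21 sums 14 genes on all probes. Sums for this and the other lists are therefore not comparable between the times. Macrophage markers were at least 2-fold higher for 5 of 6 genes at day 7 and 8 of 8 at day 21. Their summed signal went from 2.64 to 6.68 and from 5.10 to 10.6, and Itgam in the uninjured artery and Cd163 in the uninjured and day 21 arteries were not well above background. Skeletal and cardiac muscle, which also express Hspb2, Hspb6, Hspb7 and Cryab, left 12 of 14 markers above background in the uninjured artery and 9 of 14 at day 21. Their summed signal went from 5.15 to 3.74, with 4 of 8 measured genes at least 2-fold lower, Ckm at -4.01 ± 0.16 among them. At day 7 their sum was 2.46 against 2.64 and the median -0.06, positive with quantile and loess scaling. That sum and median mix differences in both directions. Of 4 measured genes 1 was at least 2-fold lower, Acta1 at -2.45 ± 0.36, and 1 was at least 2-fold higher. Myh1 was not well above background in the uninjured or the day 21 artery. Endothelial markers were at least 2-fold higher for 4 of 4 genes at day 7 and 4 of 5 at day 21. The day 7 count was 2 with own-design scaling, and 3 with normexp and in the authors' deposited table. Their summed signals were 2.63 against 0.55 and 4.38 against 2.14. These sums include dim probes, as 4 of 6 and 5 of 8 markers were well above background in the uninjured artery. The Schwann cell list had 3 of 4 genes higher at day 7 and 1 of 6 lower at day 21. In the adipocyte list 1 of 1 and 1 of 4 were at least 2-fold higher. What part these cell types have in the members' ratios was not tested.

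Likeness was measured as the distance between genes in the pair of log2 ratios to the uninjured artery (day 7 and day 21), over 5180 genes well above background on all 3 arrays at shared probes. The nearest named gene to Hspb1 was Bag3, at a distance of 0.12, and it was the only one within 0.25. Sparcl1 (0.28) and Rasl12 (0.29) followed. Hspb6 had 3 genes within 0.25, namely Terc (0.19), Nfil3 (0.21) and Trdn (0.23). Hspb7 had 9, led by Gata2 (0.07), Isg20 (0.11) and Flna (0.15), and Cryab had 2, Slc6a17 (0.05) and Csrp2 (0.17). Hspb8 had 150 genes within 0.25, nearest Cir1 (0.01), Ankrd49 (0.03) and Commd9 (0.03), so many genes had ratios like its own. All these distances rest on 3 arrays and share the uninjured one.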

How the data were processed

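Cy3-labelled artery RNA was read on Agilent arrays of a single colour, per the labels, with 1 array per group. The deposited spot intensity values are Feature Extraction output, made with release 11.0.1.1 at day 7 and release 10.7.3.1 otherwise, per the file headers. The software had subtracted background and removed spatial trends, with no scaling across arrays. Only release 10.7.3.1 appears in the submitters' processing notes. On a log2 scale, the authors' deposited table lists 9260 rows, with column medians of 7.64, 7.62 and 7.64. Its normalization and centring are not given in the sources used here. Its columns correlated with the scanner signals on a log2 scale (r of 0.947 to 0.977 across probes), so its values rise with signal. Ratios between arrays did not all keep their sign. For Hspb8 at day 7 against uninjured the ratio was 0.59 on the reported scale and -0.29 in that table.

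Control and outlier-flagged spots were left out, log2 spot values were averaged per probe, and the 75th percentile of the array was taken off: over 40989 probes for day 21 against uninjured, and over 10583 probes on both designs otherwise. Accessions were matched to RefSeq names (17505 and 8041 probes named). The brightest probe stood for a gene, and a call needed signal well above background on both arrays and a 2-fold difference. The spot SD is that of the probe's own spots where there were at least 3, and otherwise interpolated over signal in 20 bins. Each ± is this SD divided by the square root of the number of spots, combined over both arrays as the root of summed squares. The calling code was checked on simulated data. Python 3.11.15, R 4.3.3 and limma 3.58.1 were used.

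The members and gene lists were chosen with earlier results of these data known. Genes named from a list come from the 2 highest and 2 lowest of a comparison, or are the first 2 of a marker list, and the 3 nearest genes by ratio are named for each member, except 1 that is not reported here. Itgam, Cd163 and Myh1 are named as well, for being dim. Alternatives were median, quantile and loess scaling, normexp with an offset of 50, other probe sets, the median over probes, no dim filter, flags kept, a 1.5-fold threshold and the deposited table. The plan named the mean spot signal for normexp; the median spot signal, which the files hold, was used instead.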

Additional observations from a re-analysis of the deposited data

Results flagged for a closer look

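Hspb2 had a signal on a probe that entered no comparison. The day 7 design carries another Hspb2 probe than the older design, and it read 1038 intensity units at day 7, where the 153 negative control spots of that array had a median of 2.84 and a highest value of 25.9 units. Because this probe is on the day 7 design only, its level has no counterpart on the other arrays.

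The authors' deposited table nevertheless lists this probe with a log2 value for all 3 samples: 7.89 uninjured, 10.04 at day 7 and 6.11 at day 21. Of the table's rows, 3957 carry probes that are not on the older design. For 2479 of these in the uninjured column and 2480 in the day 21 column, the gene has a single probe on the older design. A cubic curve from scanner signal to deposited value, drawn on rows with a shared probe, was applied to that older probe. It gave values that correlated with the deposited ones at r = 0.996 and r = 0.998 across genes, with a median difference in size of 0.24 and 0.22, against 0.25 and 0.24 for the shared rows themselves. For Hspb2 the curve gave 7.66 and 6.17. The day 7 value of Hspb2 in the authors' deposited table thus stands 2.15 above the uninjured value, while the values beside it match a different probe, and that difference was not used here.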

How the results depend on the processing

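No paired analysis was possible because each group held 1 array. Normexp on the median spot signal was chosen after seeing the data; on the mean spot signal it was not run. At day 7 the number of members at least 2-fold lower was 4, and 3 to 4 under the alternatives. Of all genes, 16.3% were at least 2-fold lower on the reported scale. That share ran from 9.73% with normexp to 59.5% with own-design scaling, and was 40.5% in the authors' deposited table. At day 21 against uninjured the number of members was 5, with 3 under normexp and 4 to 6 otherwise. Hspb2 and Hspb7 came within 2-fold under normexp, and Hspb7 also with median scaling. The 6th was Hspb3, counted without the filter on dim probes. Of all genes, 13.7% were at least 2-fold lower at day 21, against 2.82% with normexp and 22.9% without that filter. Between day 21 and day 7 the number of members lower was 1, and 2 with the 1.5-fold threshold. It was 0 with median scaling, with normexp, in the authors' deposited table and with own-design scaling. With own-design scaling 3 members were instead at least 2-fold higher, where 57.6% of all genes were. Cryab turned to 0.15 in that comparison with own-design scaling. For these shifts the cause was not tested, other than the lower threshold itself. Signals of Hspb2, Hspb7 and Hspb8 were at most 116 units on the probes compared, nearer to background than those of Hspb1, Hspb6 and Cryab.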

Other observations

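Some chaperone genes differed strongly between the injured arteries, and were picked out after their values were seen. Hyou1 was higher at day 21 than at day 7 by a log2 ratio of 2.17 ± 0.13, and Dnajb9 by 1.98 ± 0.48, both at least 2-fold under all 6 scalings, and both serve the endoplasmic reticulum. The cytosolic chaperonin Cct4 was higher by 1.63, also at least 2-fold under all 6. Hspa5 (BiP), the main Hsp70 of the endoplasmic reticulum, was at -0.01 ± 0.13 at day 7 and -0.02 ± 0.12 at day 21 against uninjured, and Hsp90b1 at -0.20 ± 0.13 and 0.31 ± 0.12. Ywhag, a 14-3-3 protein on the list of partners, was at -2.82 ± 0.10 at day 7 and -0.11 ± 0.13 at day 21, the latter positive under 5 of 6 scalings.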
